A study of Mus musculus with 12 samples.

Results

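Double-positive (DP) thymocytes, which carry both CD4 and CD8, were compared with double-negative (DN) thymocytes, which lack CD4, CD8 and the TCRβ chain. The comparison rests on 6 of the 12 arrays of the study: the 3 arrays titled DP and the 3 titled DN. The other arrays hold mature CD4SP and CD8SP cells, 3 each, which carry 1 coreceptor and high TCRβ. All cells were sorted by flow cytometry from thymi of untreated C57BL/6 mice, carried no transgene or deletion named in the labels, and were lysed without culture. Ages are not given in the labels, and total RNA was read on Affymetrix arrays.

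Probe sets with 1 gene symbol were averaged per gene, which gave 18193 genes. The deposited values are logarithms, read here as log2 because no base is stated, and the DP mean had been taken off every probe set. The DP mean of every gene is therefore 0, a DN value is a difference from it, and levels and signal over background are lost. Differences are DP minus DN. The verbs "rose" and "fell" stand only where limma gave an adjusted p under 0.05, which is also what called means. Of all genes, 3240 (17.8%) rose and 3420 (18.8%) fell, 521 and 1011 of them by 2-fold or more. The median difference over all genes was 0.04. It is not stated that replicates are separate mice. The p-values therefore cover the spread of these arrays alone, and the number of arrays limits the precision. In RNA from sorted bulk cells, fewer cells of a type and less RNA per cell cannot be told apart. DN replicate 1 and, among the arrays outside this comparison, CD8SP replicate 1 had the lowest array weights (0.53 and 0.28).

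The DN population is where T cell precursors commit, rearrange the TCRβ gene and, once a β chain pairs with the pre-TCR α chain, divide in a burst. DP cells that have left this burst are small, rearrange the TCRα gene and wait for a selecting signal, and most of them die. Growth, nutrient uptake and division on the DN side, and survival, receptor signalling and rearrangement on the DP side, are the textbook contrasts between them. Many DN cells are not yet in or are past the burst, and a sort on CD4, CD8 and TCRβ alone does not remove γδ T cells, B cells, NK cells or myeloid cells. The labels name no further marker in the DN sort.

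The sort genes followed the labels. Cd4 lay at -0.16, 0.00 and 0.16 on the DP arrays, against -3.88, -6.49 and -5.29 on the DN arrays. Cd8a lay at -0.08, 0.01 and 0.08 in DP, against -2.63, -4.59 and -3.94 in DN. For both genes the groups did not overlap, and DN replicate 1 was the DN array closest to DP. Cd8b1, the CD8β chain, had the same order (-2.63, -3.98 and -3.79 in DN).

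The largest rises are given without a list of stage genes and genes known from earlier results of these data. That list holds Slc7a11 (6.91 ± 0.18), Chrna9 (4.76 ± 0.27) and Plxnd1 (3.70 ± 0.23), which are described with their pathways. The others were genes of varied functions. The non-coding RNA gene Nron, named as a repressor of the transcription factor NFAT, rose by 3.73 ± 0.26 (SE of the limma fit, n = 3 per group, adjusted p = 1.83e-06). Glcci1, a glucocorticoid-induced transcript, lay at -0.06, -0.04 and 0.10 in DP, against -3.07, -4.00 and -3.67 in DN, and rose by 3.58 ± 0.19. Its DP arrays were nearly level, and DN replicate 1 was the DN array closest to them. Adam12, a membrane metalloprotease, lay at -0.16, 0.05 and 0.12 in DP, against -3.38, -3.42 and -3.37 in DN. Its 3 DN arrays were nearly level, and at 3.39 ± 0.08 it had an adjusted p of 1.88e-09. The kinase gene Map4k5 (3.51 ± 0.20), the coagulation factor gene F13a1 (3.38 ± 0.17), the insulin-family peptide gene Insl5 (3.26 ± 0.10) and the junction protein gene Jup, plakoglobin (3.25 ± 0.22), also rose. Others were the death receptor gene Fas, the formin gene Fmnl2 (3.09 ± 0.10), the meiotic recombination gene Spo11 (3.01 ± 0.11), the orphan receptor gene Gpr162, Tctex1d1, Nyap1, the sialomucin gene Podxl2 and the glycogen phosphatase subunit gene Ppp1r3b, between 2.83 and 3.20. Podxl2 had the least even DN arrays (-2.39, -4.08 and -2.02).

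Relative to DP, Insl5 lay at -3.79 in CD4SP and -3.86 in CD8SP cells. Spo11 lay at -3.52 in CD4SP and -4.52 in CD8SP, and Fas at -0.96 and -1.22. The DN means were -3.26 for Insl5, -3.01 for Spo11 and -3.20 for Fas. These single-positive values and the DP against DN values share the DP arrays.

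**Figure D1:**
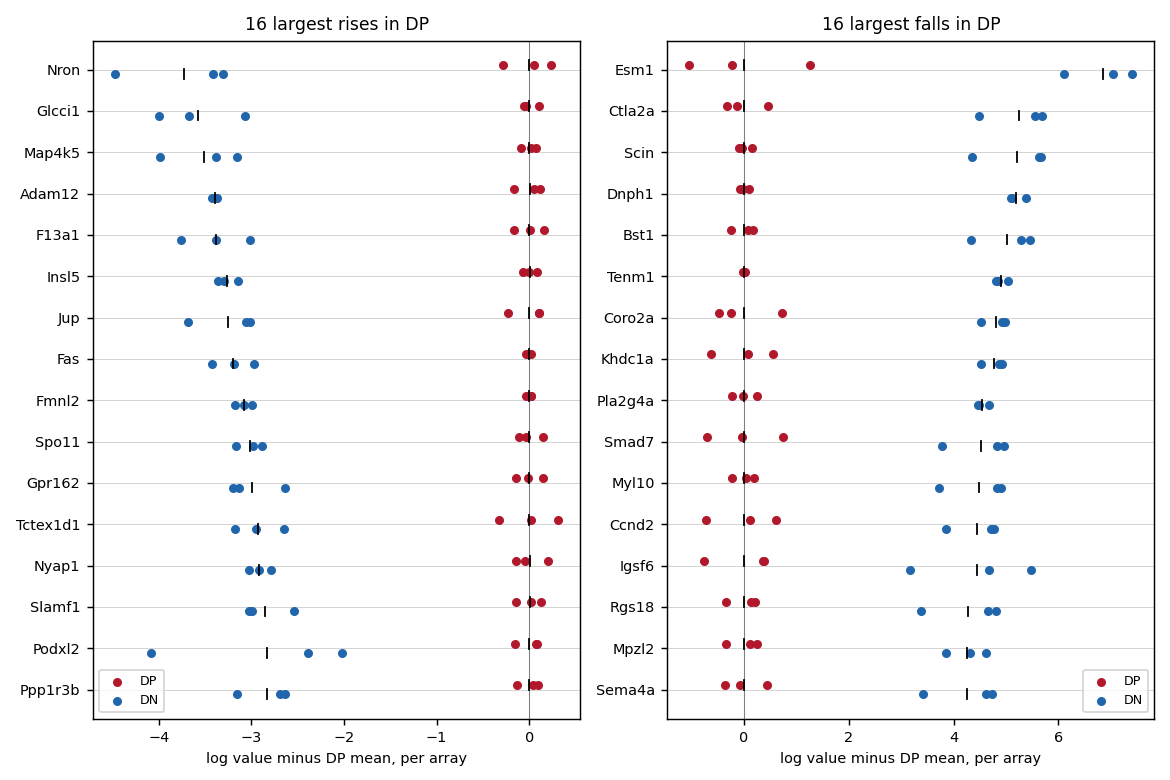
Values of the 16 largest rises (left) and the 16 largest falls (right) among named genes outside the stage and cell type marker lists, per array, as log value minus the DP mean. Red points are the 3 DP arrays, blue points the 3 DN arrays and black ticks the group means. No gene shown has overlapping groups, and DN replicates of Igsf6 run from 3.17 to 5.48 while those of Tenm1 lie between 4.80 and 5.04.

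Among the largest falls, chosen by the same rule, Esm1, which encodes the secreted proteoglycan endocan, lay at -1.04, 1.26 and -0.22 in DP, against 6.10, 7.04 and 7.41 in DN, a fall of 6.85 ± 0.72 (adjusted p = 2.92e-05). Esm1 is best known from endothelium. Of 18 endothelial genes Cd34 (-2.28 ± 0.38, adjusted p = 0.000758) and Eng (-1.05 ± 0.22, adjusted p = 0.00283), which progenitor cells also express, fell, and the other 16, among them the defining genes Cdh5 (0.08 ± 0.15), Kdr (-0.04 ± 0.13) and Tie1, were not called. The part of such cells in the Esm1 values was not tested. Dnph1, a nucleotide hydrolase, lay at -0.02, 0.10 and -0.08 in DP, against 5.38, 5.11 and 5.09 in DN. The teneurin gene Tenm1, a transmembrane adhesion protein known from neurons, lay at 0.00, 0.01 and -0.01 in DP, against 4.85, 5.04 and 4.80 in DN, and had the smallest adjusted p of those named (2.94e-10). The DN arrays of both genes were close to level.

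Other falls had DN replicate 1 well below the other DN arrays. Scin, an actin-severing protein, had DN values of 4.35, 5.63 and 5.67, the ectoenzyme gene Bst1 4.33, 5.28 and 5.45, and the protease inhibitor gene Ctla2a 4.49, 5.56 and 5.69. Smad7, an inhibitor of TGFβ signals, fell by 4.52 ± 0.36 and the D-type cyclin gene Ccnd2 by 4.45 ± 0.31. In CD4SP and CD8SP cells Smad7 stood 7.01 and 7.17 above DP, Ccnd2 6.62 and 6.70 above it, and the semaphorin gene Sema4a (-4.25 ± 0.31 in DP against DN) 5.63 and 6.16 above it. Scin, Bst1, Myl10 and Pla2g4a, the cytosolic phospholipase A2, lay between -0.38 and 0.03 in both mature subsets relative to DP. Coro2a, Khdc1a, Igsf6, Rgs18 and Mpzl2, an adhesion protein of the thymus, were the remaining large falls, between -4.26 and -4.81.

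Gene groups were examined next. List counts of 3 or fewer moved by at most 2 when 1 array was left out, and larger counts that moved by over 1.5 times are given with their lists. Quantile normalization, which lowered the number of calls over all genes, moved 58 of 102 list counts by over 1.5 times. The falls in ribosome biogenesis, nucleotide synthesis, mitochondrial ribosomal proteins, chaperones and DNA replication were not among them. Another alternative, the probe set of highest mean, was picked on the centred values, which favours falls over rises by construction. The genes of ribosome production formed the list with the largest share of falls. Its 46 measured members gave 43 falls, 1 rise and 2 genes not called. The median difference was -1.24. Polr1b, a subunit of RNA polymerase I, lay at -0.06, 0.09 and -0.03 in DP, against 2.45, 2.42 and 2.45 in DN. Mybbp1a, a nucleolar regulator of ribosomal RNA synthesis, lay at -0.14, 0.19 and -0.05 in DP, against 2.37, 2.44 and 2.28 in DN. Rrp1b, a processing factor, lay at -0.04, 0.00 and 0.04 in DP, against 1.81, 1.83 and 1.82 in DN. For all 3 the DN arrays were nearly level and lay far above DP. Dkc1, the pseudouridine synthase dyskerin, fell by 1.82 ± 0.08 (adjusted p = 6.45e-08). The member that rose, Wdr12, did so by 0.39 ± 0.13 (adjusted p = 0.0331), but not when any 1 of the DN arrays, DP replicate 2 or DP replicate 3 was left out (0.33 to 0.43).

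Falls in the ribosomes themselves were smaller. Among mitochondrial ribosomal proteins 60 of 75 fell and 1 rose, with a median of -0.61; Mrps18b fell by 2.00 ± 0.15 and Mrpl12 by 1.58 ± 0.11. Among cytosolic ribosomal proteins 27 of 47 fell and 1 rose, with a median of -0.31, and Rpl14 had the largest fall named (-2.15 ± 0.14). Of the respiratory chain and ATP synthase 47 of 74 fell and 3 rose (median -0.37), among them cytochrome c, Cycs, at -0.76 ± 0.08. Ribosomal protein genes have many near-identical pseudogene copies, and probes may take signal from them.

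Genes of nucleotide synthesis fell too. Of 35 genes of serine synthesis, folate-dependent carbon transfer and nucleotide synthesis 28 fell, 2 rose and 5 were not called (median -1.23). Shmt2, the mitochondrial enzyme that takes a carbon from serine, lay at 0.13, 0.01 and -0.14 in DP, against 2.74, 2.67 and 2.53 in DN. Cad, which opens pyrimidine synthesis, lay at 0.07, 0.07 and -0.14 in DP, against 2.35, 2.26 and 2.08 in DN. The cytosolic folate enzymes Mthfd1 (-2.34 ± 0.09, adjusted p = 3.15e-08) and Shmt1 (-2.32 ± 0.09) fell to a like degree. The members that rose were the salvage kinase gene Dck, deoxycytidine kinase (1.06 ± 0.08), and Prps2 (0.52 ± 0.10). Dck lay at -0.07, 0.02 and 0.05 in DP, against -1.06, -1.14 and -0.99 in DN. It was also lower in CD4SP (-2.56) and CD8SP (-2.22) than in DP, so that DP had the highest value of the 4 subsets.

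Protein folding and breakdown genes were lower as well. Of 29 cytosolic and mitochondrial chaperones 0 rose, 21 fell and 8 were not called (median -0.81). The cochaperone gene Bag2 fell by 2.20 ± 0.09, mitochondrial Hspe1 by 2.09 ± 0.15 and Hspa9 by 1.25 ± 0.07. Of 43 proteasome subunits 30 fell and 2 rose; Psmb10, an immunoproteasome subunit, fell by 1.39 ± 0.13. In the endoplasmic reticulum 16 of 31 genes fell and 7 rose. The chaperones Hspa5 (-0.77 ± 0.08, with 2 of its 3 probe sets called) and Calr (-0.79 ± 0.08) fell. Edem1, which sends misfolded glycoproteins to degradation, rose by 1.28 ± 0.08, and the cochaperone gene Dnajc3 by 1.04 ± 0.10.

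**Figure D2:**
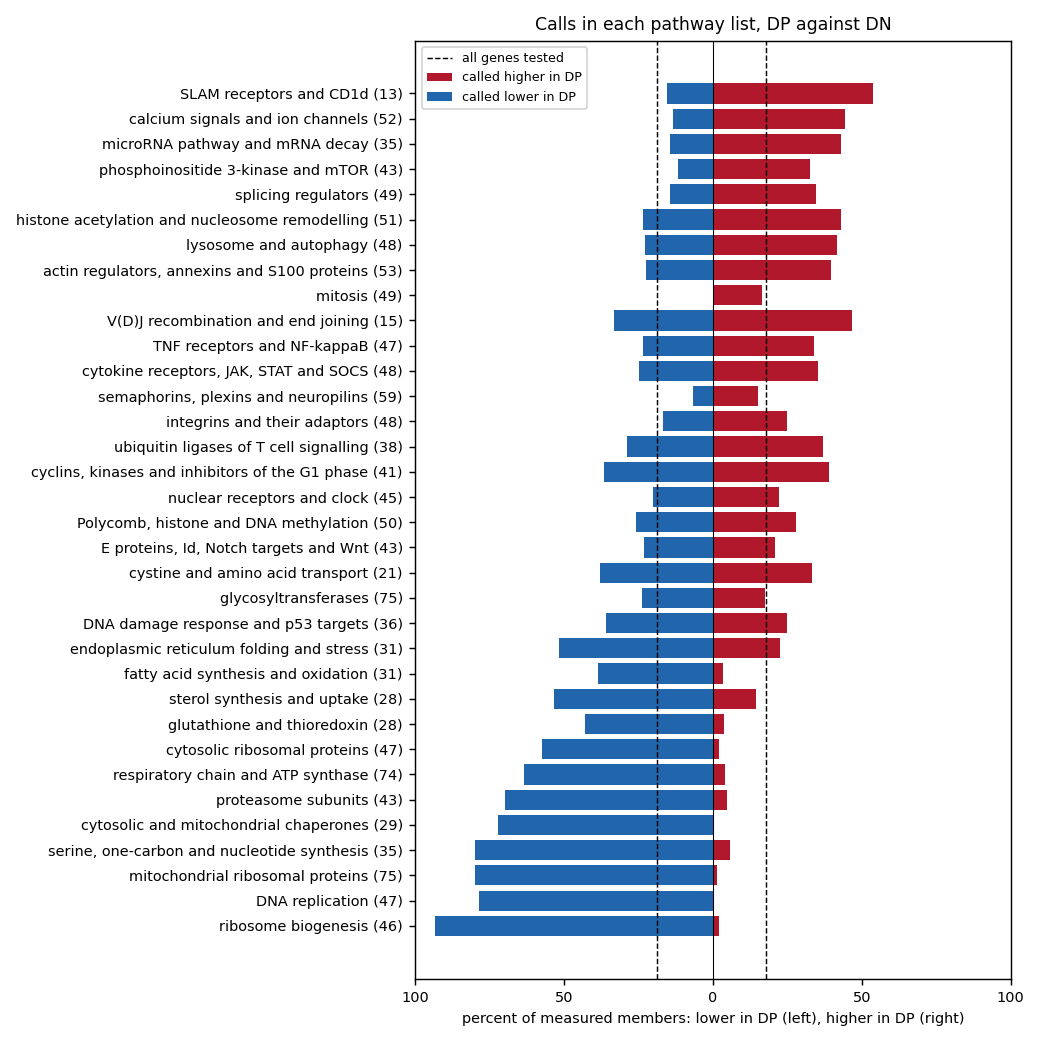
Percent of measured members called higher (red, right) and lower (blue, left) in DP than in DN for each pathway list, with the number of measured members in brackets. Dashed lines mark the shares over all genes, 17.8% higher and 18.8% lower. Ribosome biogenesis had 43 of 46 members lower, and SLAM receptors and CD1d had 7 of 13 higher.

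Amino acid transport changed in both directions. The transporter gene Slc7a11, which brings in cystine, was by far the furthest apart: -0.17, 0.05 and 0.12 in DP, against -6.80, -7.08 and -6.84 in DN. Slc7a5, the chain of the large neutral amino acid transporter that activated T cells depend on, moved the other way, at -0.18, 0.25 and -0.07 in DP, against 2.50, 2.53 and 2.37 in DN. The 21 measured genes gave 7 rises and 8 falls. The cationic transporter gene Slc7a1 fell by 1.14 ± 0.10, and Slc43a2, another neutral amino acid transporter, rose by 2.01 ± 0.10. Of 28 genes of glutathione and thioredoxin, which draw on cystine, 12 fell, 1 rose and 15 were not called. Gsr, which recycles glutathione, fell by 1.45 ± 0.14, Gclm, the regulatory subunit of glutathione synthesis, by 0.84 ± 0.11, and the mitochondrial peroxiredoxin gene Prdx3 by 1.15 ± 0.12. The member that rose was Txnip, which binds thioredoxin and restrains glucose uptake. It lay at 0.49, -0.25 and -0.25 in DP, against -1.73, -2.20 and -2.06 in DN.

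Lipid genes were examined as 2 lists. Of 28 genes of sterol synthesis and uptake 15 fell and 4 rose. Among the falls were the synthesis enzymes Hmgcs1 (-1.13 ± 0.10), Cyp51 (-1.15 ± 0.10), Sqle (-1.37 ± 0.13) and Idi1 (-1.73 ± 0.18), and among the rises the exporter gene Abca1 (1.24 ± 0.25) and Insig2 (0.73 ± 0.10), a brake on synthesis. Abca1 had a low DN replicate 1 (-1.92, against -0.88 and -0.91 on the other DN arrays). Srebf2, the factor that drives sterol synthesis, was not called (-0.01 ± 0.10, adjusted p = 0.951; named after its value was seen). Of 31 fatty acid genes 12 fell, 1 rose and 18 were not called. Fasn, fatty acid synthase, lay at -0.12, 0.07 and 0.06 in DP, against 1.67, 1.95 and 1.80 in DN, and the elongase gene Elovl6 fell by 1.94 ± 0.16. Acadm, a mitochondrial β-oxidation enzyme, rose by 0.56 ± 0.09.

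Replication genes and mitosis genes gave different counts. Of 47 replication genes 37 fell, 0 rose and 10 were not called. Their median was -0.77. The helicase subunit gene Mcm3 lay at 0.09, -0.04 and -0.05 in DP, against 1.02, 1.10 and 1.08 in DN. Mcm6 fell by 1.13 ± 0.09, the polymerase δ subunit gene Pold2 by 1.59 ± 0.12 and the uracil glycosylase gene Ung by 2.19 ± 0.10. The 49 mitosis genes gave 8 rises (16.33%, against 17.8% of all genes), 0 falls and 41 genes not called. Their median was 0.31, and under quantile normalization 0 of them rose. Plk1, a kinase of mitotic entry named after its values were seen, differed by 0.00 ± 0.25. Top2a, topoisomerase IIα, rose by 1.02 ± 0.33 (adjusted p = 0.0338). It lay at 0.31, -0.15 and -0.16 in DP, against -0.56, -1.13 and -1.38 in DN, and the array numbered 1 was the highest in each group. The same held for the list median, which was 0.26, -0.15 and -0.09 on the DP arrays, against 0.04, -0.37 and -0.49 on the DN arrays. The groups overlapped on it, and the list was less settled than the others: 26 members rose with the arrays numbered 1 as a factor, 24 with a replicate block, 13 without DN replicate 1, 5 without DP replicate 2, and 3 without DN replicate 2, DN replicate 3, DP replicate 1 or DP replicate 3. Top2a itself was not called when DN replicate 2, DN replicate 3 or any 1 DP array was missing, nor by its probe set of highest mean (0.32). In the mature subsets the mitosis medians were far lower, -1.47 to -2.05 in CD4SP and -0.95 to -1.32 in CD8SP.

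Regulators of entry into the cycle changed in both directions. Of 41 cyclins, kinases and inhibitors 16 rose, 15 fell and 10 were not called. Myc, the growth factor-responsive transcription factor, lay at 0.02, 0.02 and -0.04 in DP, against 3.50, 3.76 and 3.86 in DN. The G1 kinase gene Cdk6 lay at 0.11, -0.08 and -0.03 in DP, against 2.44, 2.71 and 2.92 in DN. Both genes were clear of overlap, and the related Cdk4, chosen after its value was seen, fell by 1.91 ± 0.10. Several restrainers of the cycle rose. The kinase inhibitor gene Cdkn2d lay at 0.02, -0.02 and 0.01 in DP, against -2.25, -2.08 and -2.12 in DN. Btg1 (1.99 ± 0.17) and Btg2 (1.78 ± 0.16), antiproliferative proteins, and Mxd4 (1.64 ± 0.15), which competes with Myc for its partner, rose too. Chosen after their values were seen, Cdkn1b (1.45 ± 0.17) and Rbl2 (1.24 ± 0.12) rose among inhibitors, while the inhibitor gene Cdkn1a fell by 1.07 ± 0.18. Ccnd3, the D-type cyclin of DP precursors, also chosen after its value was seen, rose by 2.23 ± 0.22, opposite to Ccnd2.

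**Figure D3:**
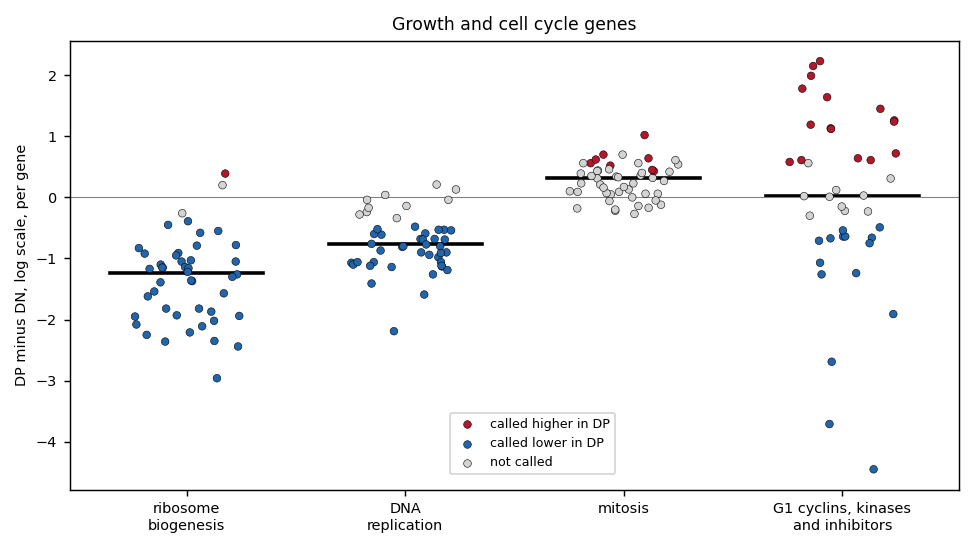
Difference DP minus DN on the log scale for each measured gene of 4 lists (46, 47, 49 and 41 genes), with black lines at the list medians. Red points were called higher in DP, blue points lower, and grey points were not called. Replication genes lie around a median of -0.77 and mitosis genes around 0.31, while G1 regulators run from -4.45 to 2.23.

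Because Myc and the ribosome genes were far apart between the groups, the promoters of the latter were read for the E-box CACGTG, the motif that Myc and its relatives bind. The windows run from 250 bases before to 50 after the start site in RefSeq annotation of GRCm38.p6, both strands were searched, and the motif does not overlap the others searched. Of 40 ribosome biogenesis genes with a window 9 held it (22.5%), against 8.09% of the 27025 genes in the promoter table. The motif was in 378 of the 2757 genes with a window that fell (13.7%) and in 272 of the 2622 that rose. All 9 list genes with it fell, as did 37 of the 40 with a window. These are matches of letters in a short window, and binding was not measured. The 4 with the largest falls are shown with the E-box in capitals, followed by Rrn3, which holds 2. The windows are chr6:125131633-125131932 on the + strand for Nop2, chr11:72441077-72441376 (+) for Mybbp1a, chr11:74897830-74898129 (+) for Tsr1, chr10:88826765-88827064 (-) for Utp20 and chr16:13780449-13780748 (+) for Rrn3.
Nop2: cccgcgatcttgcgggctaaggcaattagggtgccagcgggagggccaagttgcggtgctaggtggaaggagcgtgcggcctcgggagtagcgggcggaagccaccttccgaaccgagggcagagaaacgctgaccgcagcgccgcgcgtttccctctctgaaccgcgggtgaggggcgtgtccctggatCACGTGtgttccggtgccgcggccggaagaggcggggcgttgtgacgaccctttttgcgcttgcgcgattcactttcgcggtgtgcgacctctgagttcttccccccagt
Mybbp1a: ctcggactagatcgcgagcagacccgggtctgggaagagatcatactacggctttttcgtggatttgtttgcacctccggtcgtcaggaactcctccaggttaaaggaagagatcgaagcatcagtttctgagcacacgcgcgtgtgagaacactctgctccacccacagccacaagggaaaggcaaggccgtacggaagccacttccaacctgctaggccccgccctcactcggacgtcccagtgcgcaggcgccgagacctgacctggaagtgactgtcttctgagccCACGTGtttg
Tsr1: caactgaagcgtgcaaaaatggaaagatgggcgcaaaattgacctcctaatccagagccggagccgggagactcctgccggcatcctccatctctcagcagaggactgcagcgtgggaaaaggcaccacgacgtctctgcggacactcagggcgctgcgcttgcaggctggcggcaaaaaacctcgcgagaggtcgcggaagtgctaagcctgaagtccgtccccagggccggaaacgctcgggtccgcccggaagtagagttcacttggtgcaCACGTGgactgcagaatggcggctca
Utp20: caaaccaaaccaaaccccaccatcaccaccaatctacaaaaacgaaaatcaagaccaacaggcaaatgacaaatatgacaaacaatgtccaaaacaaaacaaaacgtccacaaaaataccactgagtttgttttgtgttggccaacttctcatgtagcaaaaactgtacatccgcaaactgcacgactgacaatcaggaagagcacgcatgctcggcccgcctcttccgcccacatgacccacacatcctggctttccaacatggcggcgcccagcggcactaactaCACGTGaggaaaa
Rrn3: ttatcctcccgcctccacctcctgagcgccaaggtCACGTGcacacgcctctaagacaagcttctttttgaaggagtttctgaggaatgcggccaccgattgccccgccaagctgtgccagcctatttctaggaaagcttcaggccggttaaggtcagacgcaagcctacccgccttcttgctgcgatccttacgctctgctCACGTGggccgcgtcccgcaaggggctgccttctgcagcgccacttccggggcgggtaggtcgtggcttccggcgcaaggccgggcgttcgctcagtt
In 3 of these windows the E-box began downstream of the start site, at base 41 in Mybbp1a, 25 in Tsr1 and 38 in Utp20. In Nop2 it began 60 bases upstream, at -60. Nop2, an RNA methyltransferase of the nucleolus, fell by 1.94 ± 0.09, Tsr1 by 2.21 ± 0.11, Utp20 by 2.11 ± 0.09 and the polymerase I initiation factor gene Rrn3 by 0.58 ± 0.09. These 4 genes were chosen for their motif.

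The sterol list was read for TCACNCCAC, the core that sterol regulatory element binding proteins recognise. Of 22 genes with a window 1 held it (4.55%), against 1.44% of all genes. It was Hmgcs1, at chr13:119690101-119690400 on the + strand, with the motif in capitals.
Hmgcs1: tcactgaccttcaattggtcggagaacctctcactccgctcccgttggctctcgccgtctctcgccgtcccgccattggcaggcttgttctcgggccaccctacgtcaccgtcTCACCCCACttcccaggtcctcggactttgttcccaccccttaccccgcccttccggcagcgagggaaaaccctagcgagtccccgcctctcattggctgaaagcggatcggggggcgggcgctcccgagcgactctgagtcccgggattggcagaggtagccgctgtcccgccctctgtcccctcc
Hmgcs1 makes the precursor of mevalonate. It lay at 0.05, 0.00 and -0.05 in DP, against 0.98, 1.30 and 1.12 in DN, with no overlap.

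Clock and nuclear receptor genes showed no common direction, with 10 of 45 higher, 9 lower and 26 not called. The shares, 22.22% and 20.00%, were near the 17.8% and 18.8% of all genes. Arntl, the core clock activator BMAL, lay at -0.03, -0.04 and 0.07 in DP, against -1.67, -1.85 and -1.85 in DN. Cry1, a clock repressor, rose by 0.89 ± 0.07 and the clock kinase gene Csnk1e by 0.74 ± 0.10. Arntl was lower than DP in the mature subsets too, by 1.65 in CD4SP and 1.70 in CD8SP. Its promoter is shown because RORγt, a receptor of DP cells, binds TAGGTCA. Of 40 list genes with a window 2 held that motif (5%), against 2.97% of all genes, and Arntl was one of them, at chr7:113207261-113207560 on the + strand.
Arntl: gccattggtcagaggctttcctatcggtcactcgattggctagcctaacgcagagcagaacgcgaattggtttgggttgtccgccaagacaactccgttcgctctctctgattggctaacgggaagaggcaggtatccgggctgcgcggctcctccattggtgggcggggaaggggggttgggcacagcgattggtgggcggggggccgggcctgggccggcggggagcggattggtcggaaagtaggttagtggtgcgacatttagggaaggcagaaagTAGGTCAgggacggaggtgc
The motif, in capitals, begins 31 bases past the start site. The other gene with a match was Nfil3, a clock repressor, which was not called (0.03 ± 0.18, adjusted p = 0.928). Among the falls were Pparg, a lipid-sensing receptor (-1.83 ± 0.19), and the activation-induced receptor gene Nr4a2 (-0.92 ± 0.10, but -0.22 by its probe set of smallest variance).

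The machinery of rearrangement was not uniformly higher in DP. Among 15 genes of V(D)J recombination and end joining there were 7 rises and 5 falls, and under quantile normalization 4 and 2. Rag2 lay at 0.10, -0.04 and -0.05 in DP, against -1.87, -2.44 and -2.10 in DN, and Rag1 rose by 1.23 ± 0.12. The ligase gene Lig4 (0.94 ± 0.12) and the polymerase gene Polm (0.70 ± 0.15), which act at the joining step, rose with them. Xrcc5, the Ku chain that binds broken ends, was lower, at -0.08, 0.09 and -0.01 in DP, against 1.51, 1.59 and 1.45 in DN. The break-sensing kinase gene Atm fell by 0.80 ± 0.08.

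The DNA damage response divided in a like manner. Of 36 genes 9 rose, 13 fell and 14 were not called. The repair and replication-linked genes Parp1 (-1.08 ± 0.10), Nbn (-1.22 ± 0.12) and Brca2 (-0.82 ± 0.10) fell. The p53-induced gene Ei24 fell by 0.77 ± 0.08. Trp53inp1 (2.13 ± 0.10, adjusted p = 9.67e-08), another p53 target, and the cyclin G gene Ccng2 (1.84 ± 0.11) rose. The p53 targets thus did not go one way. Trp53inp1 lay at -0.12, 0.08 and 0.04 in DP, against -2.19, -2.24 and -1.97 in DN.

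Signalling lists had members on both sides, with more rises than falls. Calcium carries the signal of the T cell receptor to NFAT. Of 52 calcium and ion channel genes 23 rose and 7 fell, and 11 fell without DN replicate 1. The kinase genes Camk4 (1.66 ± 0.12) and Camk1d (1.44 ± 0.08) and the NFAT gene Nfatc3 (1.57 ± 0.10) rose. Chrna9, a nicotinic receptor subunit that forms a calcium-permeable channel, lay at -0.08, 0.02 and 0.06 in DP, against -3.95, -5.29 and -5.04 in DN. The store-operated channel genes did not go one way. Orai3 lay at 0.10, -0.19 and 0.09 in DP, against 2.23, 2.85 and 2.77 in DN, whereas Orai2, named after its value was seen, rose by 1.45 ± 0.16.

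Of 53 actin regulators, annexins and S100 proteins 21 rose and 12 fell. Anxa5, a phosphatidylserine-binding annexin, lay at -0.06, 0.07 and -0.01 in DP, against -1.80, -1.95 and -1.88 in DN. Integrin genes had 12 of 48 members higher and 8 lower. The LFA-1 chains Itgb2 (1.39 ± 0.10) and Itgal (1.21 ± 0.12) rose, and Itgb3 fell by 2.37 ± 0.33. The integrin falls numbered 5 without DN replicate 2, DN replicate 3 or DP replicate 2, and 14 without DN replicate 1 and CD8SP replicate 1.

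In the phosphoinositide 3-kinase pathway 14 of 43 genes rose, 5 fell and 24 were not called. Sgk1, a kinase downstream of it, lay at -0.21, 0.22 and -0.01 in DP, against -2.25, -2.16 and -1.88 in DN. Rictor, the defining subunit of mTOR complex 2, rose by 1.19 ± 0.07 (adjusted p = 4.64e-07), while Eif4ebp1, a target of mTOR complex 1, fell by 0.67 ± 0.10. Cytokine receptor, JAK, STAT and SOCS genes had 17 of 48 higher and 12 lower. Socs1, a feedback inhibitor of cytokine signals, lay at -0.22, 0.09 and 0.13 in DP, against -1.69, -1.73 and -1.61 in DN. Il21r rose by 1.50 ± 0.12, and Cish, an inhibitor induced by STAT5, fell by 1.87 ± 0.20. Il4ra rose by 1.53 ± 0.13 as a mean, but its probe set of highest mean gave -0.20.

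Death receptor and NF-κB genes had 16 of 47 members higher and 11 lower. Fas lay at 0.00, -0.03 and 0.02 in DP, against -2.97, -3.43 and -3.19 in DN, and its groups were far apart. The brakes of NF-κB, Nfkbia (1.56 ± 0.09) and Tnfaip3 (1.37 ± 0.12), rose, and so did the TNF receptor gene Tnfrsf1a (1.10 ± 0.09). The falls in this list numbered 6 without DN replicate 2 or DP replicate 1. Tnfrsf9, a costimulatory receptor, fell by 1.73 ± 0.23 as a mean and lay at 0.61 by its probe set of smallest variance. Of 13 SLAM and CD1d genes, which DP cells use to select natural killer T cells, 7 rose and 2 fell. Slamf1 lay at -0.14, 0.13 and 0.02 in DP, against -2.54, -2.99 and -3.03 in DN, and Cd1d2 (1.17 ± 0.12), Cd84 and Slamf6 also rose. The NK cell receptor gene Cd244a of the same family fell by 2.75 ± 0.26.

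Guidance receptor genes had few calls, 9 of 59 higher and 4 lower, shares below those of all genes. Plxnd1, a receptor for semaphorins that DP cells use in migration, lay at -0.10, 0.01 and 0.09 in DP, against -3.37, -4.05 and -3.68 in DN. Ephb6 rose by 2.39 ± 0.12 and Sema7a by 1.78 ± 0.14. The higher count was 5 without DN replicate 2 or DN replicate 3, and the lower count 8 without CD8SP replicate 1. Of 75 glycosyltransferases 13 rose (17.33%), 18 fell (24.00%) and 44 were not called, against 17.8% and 18.8% of all genes. C1galt1, which builds the core of O-glycans, rose by 1.01 ± 0.07, and Gcnt1, which branches that core, fell by 1.38 ± 0.15, but lay at -0.40 and was not called by its probe set of smallest variance. Lfng, the Fringe enzyme that tunes Notch and was named after its value was seen, fell by 2.75 ± 0.34.

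Notch drives the DN stages. In the list of E proteins, Id proteins, Notch targets and Wnt genes 9 of 43 rose and 10 fell. These shares, 20.93% and 23.26%, were near the 17.8% and 18.8% of all genes. Hes1, a Notch target, lay at 0.02, -0.03 and 0.01 in DP, against 1.70, 2.72 and 2.93 in DN, with DN replicate 1 the lowest of its group. Dtx1, another target, fell by 1.25 ± 0.18, with 1 of its 2 probe sets called (-2.25 and -0.25). The E protein gene Tcf12 rose by 0.98 ± 0.08. Id1, an inhibitor of E proteins, rose by 1.78 ± 0.19.

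Lysosome and autophagy genes had 20 of 48 members higher and 11 lower. Lipa, the acid lipase, lay at -0.30, 0.19 and 0.11 in DP, against -2.16, -2.23 and -2.15 in DN. The protease gene Ctsl rose by 1.46 ± 0.15 and the autophagosome gene Map1lc3b by 1.22 ± 0.13, and Gusb, β-glucuronidase, fell by 1.89 ± 0.11. Of 38 ubiquitin ligases of T cell signalling 14 rose and 11 fell, with the ligase genes Cbl (1.34 ± 0.09) and Cblb (-0.96 ± 0.13) on opposite sides.

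Regulators of chromatin and of mRNA had members on both sides. Of 50 Polycomb, histone methylation and DNA methylation genes 14 rose (28.00%) and 13 fell (26.00%), against 17.8% and 18.8% of all genes. Dnmt3b, a DNA methyltransferase, lay at 0.01, -0.14 and 0.13 in DP, against 2.58, 2.92 and 2.80 in DN, and the demethylase gene Kdm6b rose by 1.10 ± 0.09. Of 51 histone acetylation and remodelling genes 22 rose and 12 fell. The class IIa deacetylases went opposite ways, with Hdac7, a DP survival factor, at 1.34 ± 0.09 and Hdac4 at -1.91 ± 0.14, and Satb1 rose by 1.96 ± 0.13. Of 35 microRNA and mRNA decay genes 15 rose and 5 fell. Zfp36, which marks AU-rich mRNAs for decay, lay at -0.13, 0.01 and 0.12 in DP, against -2.35, -1.92 and -1.84 in DN. Of 49 splicing regulators 17 rose and 7 fell. Mbnl2 rose by 1.08 ± 0.08 but lay at 0.13 by its probe set of highest mean. The splicing rises numbered 11 without DN replicate 2, DP replicate 1 or DP replicate 3. The splicing falls numbered 3 without DN replicate 1 or DP replicate 2, and 4 without DP replicate 3.

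The falls were then set beside markers of cells other than αβ T cell precursors. Natural killer T cells are among them, but they carry TCRβ, which the DN sort selects against. Of the 50 largest falls 19 (38.00%) were in a list of non-T, γδ T, natural killer T or mucosal T cell markers. The same held for 41 of the 200 largest (20.50%) and for 98 of all 3420 falls (2.87%). These lists were chosen with earlier results of these data known, so their shares of the falls are not independent support. They hold 283 of the 18193 genes (1.56%). They are not complete, and thymocytes also express some of their members, so the counts can miss genes of other cells and can include genes of thymocytes. Of the 1011 falls of 2-fold or more 79 (7.81%) were list members. Of the 3240 rises 12 were.

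Neutrophil genes held the largest single falls of any list. Of 25 measured 15 fell, 0 rose and 10 were not called, and their mean was 0.07, -0.14 and 0.07 on the DP arrays, against 1.68, 2.00 and 3.24 on the DN arrays. Camp, the granule peptide cathelicidin, lay at 0.00, -0.34 and 0.34 in DP, against 7.26, 8.28 and 10.28 in DN. Ngp, another granule protein, lay at 0.13, -0.33 and 0.20 in DP, against 3.63, 4.57 and 6.20 in DN. Both were highest on DN replicate 3 and lowest on DN replicate 1, a range of over 2 log2 units. Ltf (-2.59 ± 0.44), S100a8 (-6.72 ± 0.65) and Lcn2 (-7.26 ± 0.56) had the same order. The mature neutrophil receptor gene Cxcr2 was not called (0.10 ± 0.68, adjusted p = 0.928), with DN values of -1.20, -0.79 and 1.68.

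Monocyte and macrophage markers were less uniform, with 11 of 27 lower and 2 higher, 6 lower without DN replicate 3 and 7 without DP replicate 1. The defining genes Adgre1 (0.13 ± 0.11), Csf1r (-0.20 ± 0.12), Cd68 (-0.37 ± 0.15) and Fcgr1 (-0.21 ± 0.11) were not called, and the complement gene C1qa fell by 0.98 ± 0.29 (adjusted p = 0.0214). With DN replicate 3 left out C1qa was not called (-0.79), nor with DP replicate 1 left out (-0.71). Fcgr3, an Fc receptor that NK cells also carry, had DN values of 3.47, 4.21 and 4.89. Of 22 conventional dendritic cell genes 7 fell, and 11 without DN replicate 1 and CD8SP replicate 1. The defining genes Itgax, Xcr1 and Zbtb46 were not called, and the class II genes, which B cells also express, fell: H2-Ab1 lay at -0.15, 0.17 and -0.02 in DP, against 2.85, 4.88 and 4.70 in DN.

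B cell markers followed a second order of the DN arrays. Of 28 measured 12 fell and 1 rose, and 19 fell without DN replicate 1. Their mean was 0.01, -0.01 and 0.00 in DP, against 0.24, 1.39 and 1.25 in DN. Ms4a1, which encodes CD20, lay at -0.22, -0.01 and 0.23 in DP, against 3.33, 5.93 and 5.63 in DN. Cd79a fell by 3.04 ± 0.54, while Cd79b (-0.76 ± 0.44, adjusted p = 0.212) and Pax5 (0.17 ± 0.11, adjusted p = 0.267) were not called. Here DN replicate 1 was far below the other DN arrays, which were close to each other. The plasma cell list had the same order, with means of 1.42, 1.71 and 1.65 on the DN arrays, and Mzb1, a chaperone of antibody assembly, had DN values of 1.64, 2.26 and 2.18. Its highest genes were closer to level. Igha, the IgA heavy chain, lay at -0.34, -0.04 and 0.39 in DP, against 6.42, 6.68 and 6.31 in DN. Jchain had DN values of 5.34, 5.45 and 5.27. Of 9 plasma cell genes 4 fell.

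Markers of γδ T cells and NK cells also had DN replicate 1 as the lowest DN array. Of 17 γδ T cell genes 13 fell and 3 rose. Trgv4, a γ chain segment, lay at 0.11, -0.30 and 0.19 in DP, against 6.20, 6.65 and 6.82 in DN. The factor gene Sox13 fell by 1.04 ± 0.19, the scavenger receptor gene Cd163l1 by 2.78 ± 0.23 and Etv5 by 2.48 ± 0.22. Of the 2 probe sets of Cd163l1 (-5.19 and -0.36) 1 was called. γ chain segments also rearrange in αβ lineage precursors, and Sox13 is expressed in early DN cells. Of 28 NK cell genes 17 fell, with list means of 0.65, 1.44 and 1.61 on the DN arrays. Ncr1, the NK receptor NKp46, fell by 1.24 ± 0.26, Klre1 was not called (-0.37 ± 0.18, adjusted p = 0.132), and Tyrobp, a signalling adaptor of NK and myeloid cells, had DN values of 2.43, 3.78 and 4.27. NK list genes are not exclusive to NK cells: their mean was 1.18 to 1.36 on the CD8SP arrays, where Nkg7 stood 7.52 above DP. Of 13 natural killer T cell genes 8 fell, and of 12 innate lymphoid genes 3 fell and 2 rose, with 5 falls and 1 rise without DN replicate 1. Zbtb16, the PLZF factor of innate-like lymphocytes, lay at 0.31, -0.04 and -0.27 in DP, against 1.67, 2.24 and 2.16 in DN. By its probe set of smallest variance it differed by -0.14.

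Early progenitor genes had 14 of 21 members lower and 0 higher, with means of 0.80, 1.70 and 1.77 on the DN arrays. The stem cell factor receptor gene Kit lay at -0.09, 0.03 and 0.05 in DP, against 1.70, 2.39 and 2.62 in DN. Erg fell by 3.39 ± 0.36 as a mean and lay at -0.14 by its probe set of smallest variance, and Flt3 was not called (-0.09 ± 0.15, adjusted p = 0.687). The ETS factor gene Erg and Kit mark the earliest T cell precursors and also stem cells and mast cells.

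The remaining cell type lists had 4 falls or fewer each. Of mast cell, basophil and eosinophil genes 11.76% fell, of erythroid 7.69%, of platelet 16.67%, of thymic epithelial 5.26% and of mesenchymal genes 15.79%. These shares are below the 18.8% of all genes. Of 17 mast cell, basophil and eosinophil genes 2 fell: the protease gene Cpa3 lay at 0.21, -0.21 and 0.00 in DP, against 4.99, 6.45 and 6.53 in DN, while Mcpt8 and Ms4a2 were not called. Cpa3 is also expressed by early thymic progenitors. Plasmacytoid dendritic cell genes had 4 of 15 lower (26.67%, against 18.8% of all genes). Their defining genes Siglech (-0.16 ± 0.17) and Klk1 (-0.02 ± 0.10) were not called. Of the other members Plac8 fell by 5.52 ± 0.23, Pld4 by 2.94 ± 0.18 and Lair1 by 1.06 ± 0.13. Plac8 also stood 4.34 above DP in CD8SP cells. Of 13 erythroid genes 1 fell, the transferrin receptor gene Tfrc (-1.38 ± 0.13), which all growing cells use. Of 12 platelet genes 2 fell. Of 19 thymic epithelial genes 1 fell (Epcam, -0.73 ± 0.13, but 0.23 by its probe set of smallest variance) and 2 rose, and Foxn1 was not called (0.22 ± 0.09, adjusted p = 0.0748). Of 19 mesenchymal genes 3 fell and 1 rose. The receptor genes Pdgfrb (-1.95 ± 0.21) and Pdgfra (-0.32 ± 0.10, adjusted p = 0.023) fell, and the collagen gene Col1a1 was not called (0.20). Of the 2 probe sets of Pdgfrb (-3.65 and -0.25) 1 was called, and of the 3 of Pdgfra 1. The mesenchymal falls numbered 1 without DN replicate 2 or DP replicate 2.

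**Figure D4:**
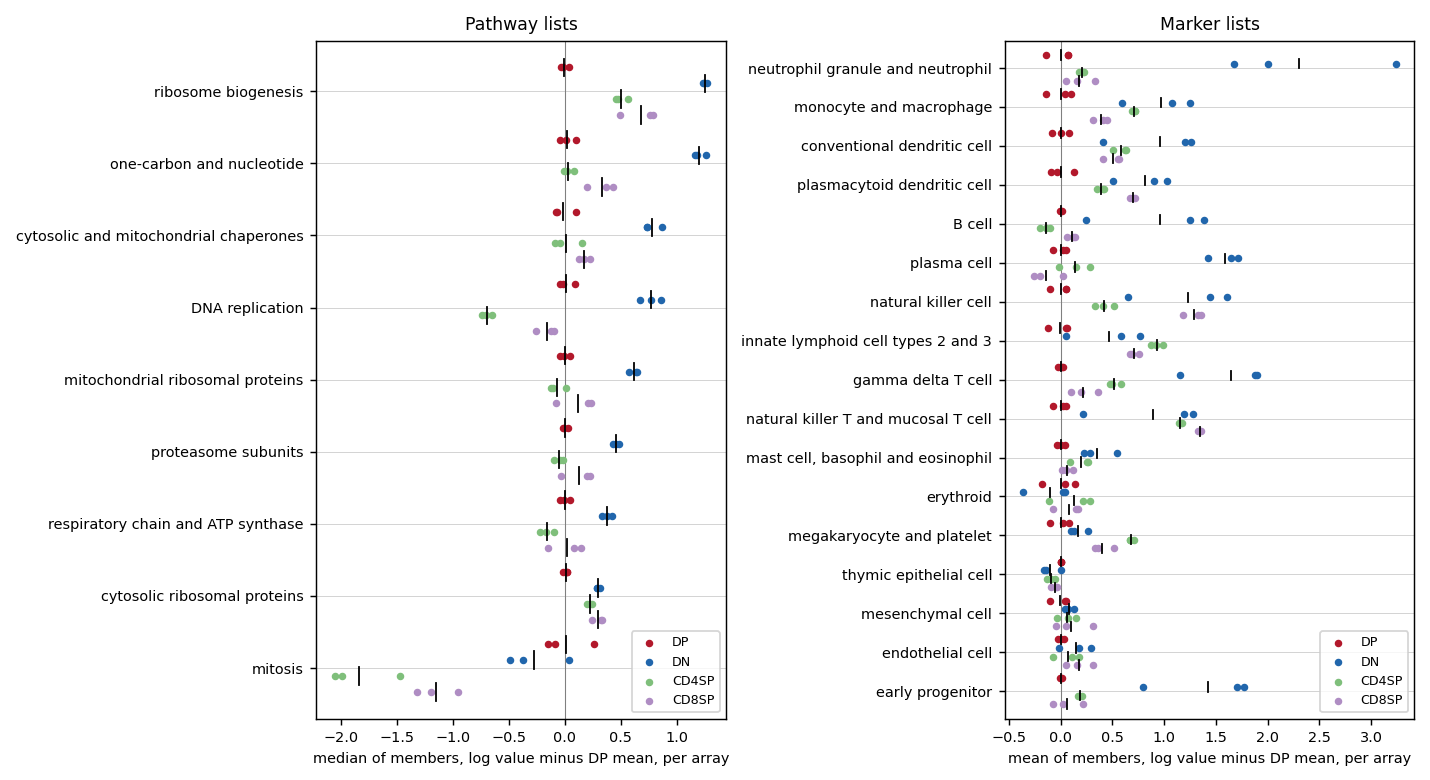
List medians (left, pathways) and list means (right, cell type markers) on each array, as log value minus the DP mean. Red, blue, green and purple points are the 3 DP, DN, CD4SP and CD8SP arrays and black ticks the group means. DN points of ribosome biogenesis lie at 1.23 to 1.27, while those of the neutrophil list lie at 1.68 to 3.24 and those of the B cell list at 0.24 to 1.39.

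The spread among the DN arrays differed between the marker lists and the growth lists. Over all genes the median range of the 3 arrays was 0.24 in DP and 0.26 in DN. In the neutrophil list it was 0.37 in DP and 1.66 in DN, and in the B cell list 0.23 and 0.94. In ribosome biogenesis it was 0.15 in DP and 0.14 in DN, and in nucleotide synthesis 0.19 in both. DN replicate 3 was above DN replicate 1 for 21 of 25 neutrophil genes and 27 of 28 B cell genes, against 21 of 46 ribosome biogenesis genes and 10 of 35 nucleotide synthesis genes. Over all genes this held for 10414 of 18193. The DN medians were 1.23, 1.27 and 1.24 for ribosome biogenesis, 1.26, 1.18 and 1.16 for nucleotide synthesis and 0.87, 0.73 and 0.73 for chaperones. Those of the first list have the order of the B cell means over a much smaller range, and the others are highest on DN replicate 1. The DN medians of DNA replication, 0.86, 0.77 and 0.67, were highest on DN replicate 1, where most marker lists were lowest. Of the 1011 falls of 2-fold or more 655 had DN arrays within 0.5 of each other and 175 had a range over 1. Of all 18193 genes these numbers were 14193 and 1026, and of the 521 rises of 2-fold or more 341 and 55. Uneven DN arrays were thus more common among these falls and these rises alike than among all genes. A range over 1 was most common among the falls, while the share within 0.5 was much the same for both. The antibody genes Igha and Jchain were also close to level on the DN arrays. The part of other cells in the falls was not tested.

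The mature subsets give a further view of the growth lists, with the same DP arrays as zero. Ribosome biogenesis medians were 0.46 to 0.56 in CD4SP and 0.49 to 0.79 in CD8SP, between DP and DN. Nucleotide synthesis medians were -0.01 to 0.08 in CD4SP and 0.20 to 0.43 in CD8SP, near DP. Replication medians were -0.65 to -0.74 in CD4SP and -0.10 to -0.26 in CD8SP, below DP. Neutrophil means stayed at 0.05 to 0.33 in the mature subsets. Myc was above DP by 2.19 in CD4SP and 2.63 in CD8SP, against 3.71 in DN.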

How the data were processed

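Per the labels, 12 Affymetrix arrays carry total RNA of 4 sorted mouse thymocyte subsets, with 3 arrays each. Each of 45101 probe sets has 1 value on every array (0 missing). The deposited values are on a log scale taken as log2, since no source used here states the base. The submitters' processing notes name MAS5, with no role. Values had been centred on the mean of the DP arrays (largest absolute DP mean 1.27e-06), and dim probe sets could not be filtered out. DN replicate 1 was deposited with 3 decimals. Of the probe sets 34958 had 1 symbol in the platform annotation, 932 several and 9211 none; 34945 entered after control probe sets. A gene is the mean of its probe sets (9010 of 18193 genes had more than 1). In 247 genes probe sets were called in opposite directions.

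Groups came from the sample titles. limma 3.58.1 in R 4.3.3 was fitted to all 12 arrays as 4 group means (lmFit and eBayes, two-sided, Benjamini-Hochberg over all genes), and tested on simulated data. Other choices of probe set, scaling, weights, blocks and left-out arrays were run as alternatives. Array medians lay between -0.10 and 0.05. The comparison, the gene lists and the motifs were chosen with earlier results of these data known. Symbols in a list without a value are not analysed here, and 1 pathway list is not reported here. Named genes are the sort genes, the 16 largest rises and falls with groups that do not overlap, outside stage and marker genes and receptor segments, up to 4 list members of lowest p in the main direction and 2 in the other, the defining markers, and 3 more per marker list. Others are stated as chosen after their values were seen. Promoters are RefSeq windows of GRCm38.p6.

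Same-numbered DP and DN arrays deviated from their group means with correlations of 0.14, 0.09 and 0.08. DP and DN arrays of different number had lower ones, -0.12 to 0.04. Between groups the arrays numbered 1 correlated at 0.11 to 0.16. The labels do not say what a number shares, so the main fit has no pairs, and a replicate block was run as an alternative.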

Additional observations from a re-analysis of the deposited data

How the results depend on the processing

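The counts of genes higher in DP than DN (3240) and genes lower in DP than DN (3420) stayed within 1.5 times in 20 of the 22 alternatives. Quantile normalization gave 1435 and 1678, and a test against a minimum difference of 0.5 gave 644 and 1094, which its higher bar lowers by construction. Leaving out 1 array gave 2541 to 3540 higher and 2923 to 3678 lower genes, and leaving out DN replicate 1 with CD8SP replicate 1, chosen after seeing the data, 3227 and 3708. With a replicate block 3507 genes were higher and 3593 lower. The labels do not say whether arrays of the same number share animals or a day. The probe set of highest mean gave 2253 higher and 3862 lower genes. It was picked on values centred on DP, so it is not the brightest probe set. Such a pick takes the probe set that stands highest above DP on the other arrays. This favours falls over rises by construction. That choice also lowered the rises among Polycomb genes to 6 of 50, nuclear receptor and clock genes to 5 of 45, cytokine genes to 11 of 48, glycosyltransferases to 8 of 75, splicing regulators to 6 of 49, guidance receptors to 5 of 59 (with 10 falls), mitosis genes to 3 of 49, ubiquitin ligases to 8 of 38 and endoplasmic reticulum genes to 4 of 31. Of 282 named gene calls 208 held in every alternative in which the gene had a value. Another 71 were lost in at least 1 of the 22 alternatives, and the other 3 (Il4ra, Tnfrsf9 and Cd93) reversed without being lost elsewhere. The direction reversed with the probe set of highest mean for Wdr12 (-0.11), Psma6 (-0.15), Bub3 (-0.09), Celf2 (-0.14), Sema4d (-0.16) and Il4ra (-0.20), and with that of smallest variance for Il4ra (-0.20), Tnfrsf9 (0.61), Sdc1 (0.10), Epcam (0.23), Acta2 (0.04) and Cd93 (0.08); probe sets of these genes disagree, and the cause was not tested. Signal over background is not known for these centred values, so that probe sets near background could not be told from others.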
